A study of Homo sapiens with 9 samples.

Results

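The HOX genes of the 4 human clusters were examined in maps of open chromatin from T47D breast cancer cells. The members were all protein-coding genes named HOXA, HOXB, HOXC or HOXD with a number, taken from the RefSeq gene table of GRCh38.p14. There were 39 of them among 20037 protein-coding genes on the chromosomes used: 11 in HOXA on chromosome 7, 10 in HOXB on chromosome 17, 9 in HOXC on chromosome 12 and 9 in HOXD on chromosome 2. Regions were taken from each cluster, from the start of its first gene to the end of its last gene, with 50 kb on either side. These windows held 80 of the 90962 regions called in normoxia, 64 of the 77451 called in hypoxia with the control hairpin and 57 of the 62779 called in hypoxia with the hairpin against ZHX2.

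The assay was ATAC-seq, where a transposase inserts adapters into DNA free of nucleosomes. T47D is an established human breast tumour line of luminal type, and the growth protocol describes lentiviral infection and drug selection for all groups. Of 3 groups with 3 samples each, shCtrl cells (a control hairpin) were kept in normoxia or in hypoxia, and shZHX2 cells, whose hairpin targets ZHX2, were kept in hypoxia. There was no shZHX2 group in normoxia, and the labels give neither the oxygen level nor the length of hypoxia. ZHX2 is a nuclear protein with zinc fingers and homeodomains, and the series concerns its part in chromatin organisation under low oxygen. Accessibility at a locus says nothing of the level of ZHX2 itself, so the knockdown was not checked here. Each group was represented by 1 list of called regions, so no value below has a replicate error, no difference between lists was tested, and read depth is unknown. A "called" region is one that the deposited list contains, and "fold" is the authors' enrichment of a region over its local background in the same list. The authors' −log10 p of a region rises with the evidence for it, and its lowest value was 10.0 to 10.1 in the 3 lists.

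HOX genes encode homeodomain transcription factors that give cells their position along the body axis. They lie in tight arrays, and genes at one end (low numbers) are used towards the head and genes at the other (high numbers) towards the tail. Genes with the same number in different clusters are paralogues. In differentiated cells, Polycomb complexes keep many HOX genes silent while trithorax complexes keep others active, and breast epithelium keeps part of the set in use.

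The labelled cell type was checked at the starts of marker genes. A gene start was scored as called when a region lay within 1 kb of the 5′ end of the gene. Of 7 luminal genes with a strand in the reference table, FOXA1, GATA3, KRT8, ELF3, SPDEF and PGR were called in all 3 lists, and ESR1, the oestrogen receptor gene, was not called at its outermost 5′ end in any. KRT5 and TP63 of basal cells, PTPRC of blood cells and PDGFRB of stroma were not called in any list. ACTA2 and MYLK, contractile genes listed with the basal or myoepithelial markers, were called in all 3. Of the blood markers, CD14 was called in all 3 and CD3D in the control lists. The called starts were thus 2 of 4 basal or myoepithelial genes in every list, and 2, 2 and 1 of 3 blood genes. Since 72%, 70.3% and 68.8% of all protein-coding starts were called in normoxia, hypoxia with shCtrl and hypoxia with shZHX2, these counts do not single out a cell type.

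The 4 clusters differed in how much of them was open. HOXC had the densest coverage from its first to its last gene, with 14.5% of its 117.2 kb inside regions in normoxia, 12.6% in hypoxia with shCtrl and 13.4% with shZHX2. HOXB had 9.06%, 8.20% and 8.04% of 200.2 kb, and HOXA had 7.27%, 6.17% and 4.41% of 107.1 kb. HOXD had the least, 4.79%, 4.33% and 4.17% of 103.4 kb. HOXC, HOXB, HOXA and HOXD stood in this order in each list. With their 50 kb flanks the windows had 8.56%, 7.18% and 7.49% in HOXC, 7.43%, 6.44% and 5.83% in HOXB, 5.56%, 4.22% and 3.03% in HOXA and 2.72%, 2.43% and 2.32% in HOXD. Over the spans of all protein-coding genes with the same flanks, 2.70%, 2.21% and 1.89% of the sequence lay inside regions, close to the HOXD window.

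**Figure D1:**
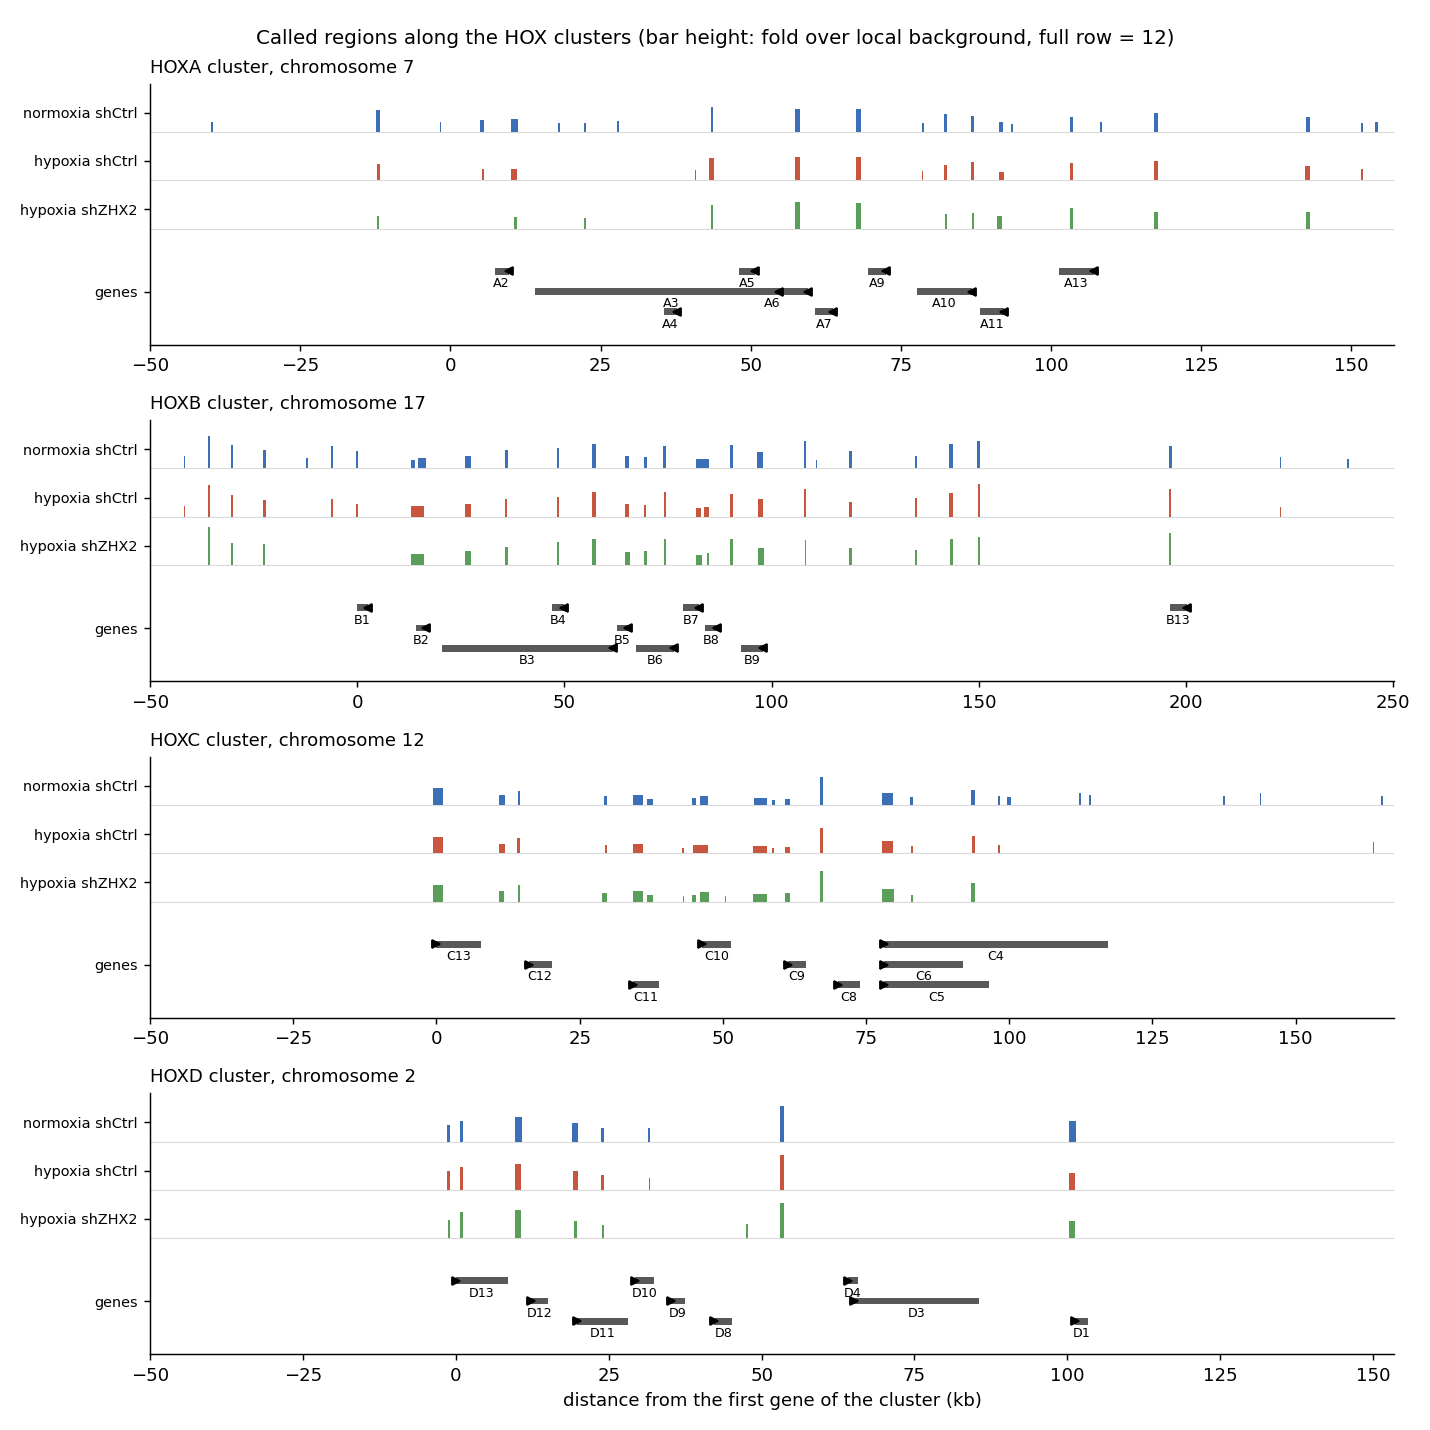
Called regions along each HOX window, with distance from the first gene of the cluster in kb on the x axis and 1 row for each list; bar height is the fold over local background, on a scale of 0 to 12 per row. Grey bars are the genes shown, and arrowheads mark their 5′ ends and point in the direction of transcription. HOXC shows wide low bars at its gene starts, and HOXD shows few regions, with 1 tall bar of fold 10.1 to 10.3 between HOXD8 and HOXD4.

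The number of regions from the first to the last gene was 14, 11 and 9 in HOXA, 20, 19 and 18 in HOXB, 19, 15 and 16 in HOXC and 7, 7 and 7 in HOXD, for normoxia, hypoxia with shCtrl and hypoxia with shZHX2. With their flanks, the windows had 22, 15 and 12 regions in HOXA, 28, 25 and 21 in HOXB, 22, 16 and 16 in HOXC and 8, 8 and 8 in HOXD. Per list, the HOX windows thus held a nearly constant share of all regions: 0.0880%, 0.0826% and 0.0908%.

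Within 1 kb, fewer than 1 in 2 HOX genes had a called start, a lower share than among all genes. The count was 18 of 39 in normoxia (46.2%, Wilson 95% interval 31.6 to 61.4), 17 in hypoxia with shCtrl and 17 with shZHX2 (43.6%, 29.3 to 59.0 in both). Among 15843 protein-coding genes with a strand in the reference table, 72% were called at the start in normoxia, 70.3% in hypoxia with shCtrl and 68.8% with shZHX2. Within 2.5 kb it was 27, 26 and 23 of 39 HOX genes, more than 1 in 2, against 77.3%, 75.2% and 73.1% of all genes. The intervals cover counting error only, and genes are not replicates. HOXC4, HOXC5 and HOXC6 share 1 annotated 5′ end, so the 39 genes have 37 distinct starts, of which 16, 15 and 15 were called.

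The same 17 genes were called in all 3 lists: HOXA2, HOXA10 and HOXA11; HOXB2, HOXB5, HOXB7 and HOXB9; HOXC4, HOXC5, HOXC6, HOXC9, HOXC10, HOXC11 and HOXC13; and HOXD1, HOXD11 and HOXD13. HOXA13, a gene of limb and urogenital development, was called in normoxia alone, through a region of fold 2.80 and −log10 p 14.2 that lay 993 bp from its start, inside the long noncoding RNA gene HOTTIP. It sat at the edge of the 1 kb rule, and in the hypoxia lists the nearest region was 3483 and 3480 bp away. No list had a called start for the other 21 genes, among them HOXA3, HOXA4, HOXA5, HOXA6, HOXA7, HOXA9, HOXB1, HOXB3, HOXB4, HOXB6, HOXB8, HOXB13, HOXC8, HOXC12, HOXD3, HOXD4, HOXD8, HOXD9, HOXD10 and HOXD12.

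**Figure D2:**
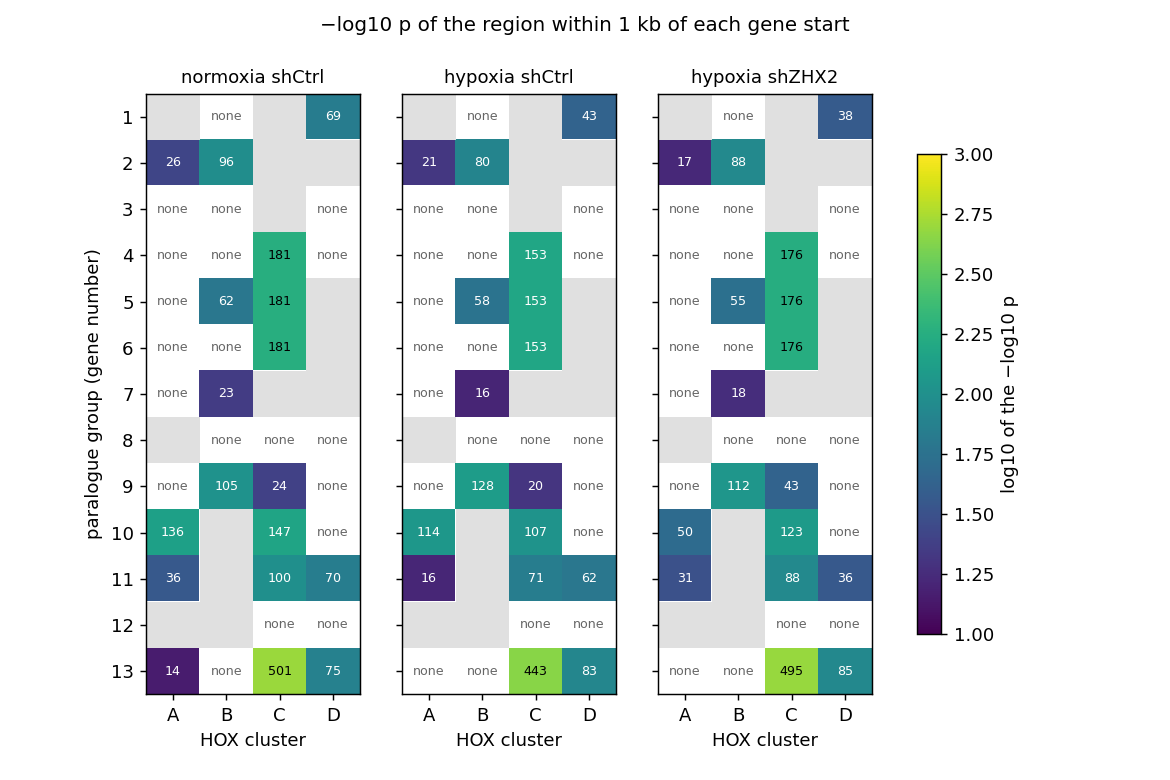
−log10 p of the strongest region within 1 kb of each HOX gene start, with the cluster on the x axis, the gene number on the y axis and 1 panel for each list. Numbers in cells are the −log10 p, colour is its log10, "none" marks a gene with no such region and grey cells are numbers that the cluster lacks or that are not shown. The same cells are filled in the 3 panels except HOXA13, and HOXC13 has the highest values, 443 to 501.

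By cluster, 7 of 9 HOXC genes were called in every list (5 of 7 distinct starts), against 4 of 10 in HOXB and 3 of 9 in HOXD in every list, and 4, 3 and 3 of 11 in HOXA. By gene number, 10 of 16 genes of groups 9 to 13 were called in normoxia and 9 in each hypoxia list. It was 5 of 15 in groups 4 to 8 (3 of 13 distinct starts) and 3 of 8 in groups 1 to 3 in every list. All 3 genes numbered 11 and both numbered 2 were called in every list, and none of the genes numbered 3, 8 or 12 was called in any. These counts use the outermost annotated 5′ end, which may not be the main promoter of HOXC4, HOXC5, HOXC6, HOXB3, HOXB6, HOXD3 and HOXD13. HOXA3 is a further case. Another RefSeq start of HOXA3, 1633 bp inward, lay inside a region in all 3 lists, with fold 6.63, 6.82 and 7.75. The remaining RefSeq starts of HOXA3 had no region within 1 kb in any list.

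Regions at HOX starts were about as wide as those at other gene starts but weaker. The median width was 1122, 1050 and 1054 bp over the HOX start regions of normoxia, hypoxia with shCtrl and hypoxia with shZHX2, against 1191, 1127 and 1133 bp over all called protein-coding starts. Their median fold was 3.55, 3.51 and 3.70, against 5.76, 5.93 and 6.20, and their median −log10 p was 72.8, 70.9 and 54.9, against 259, 243 and 238. No test was run on these differences.

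HOX promoters were mostly rich in CpG whether or not the start was called. Of the 39 genes, 18 had a RefSeq promoter sequence at the 5′ end of the gene, and HOXC4 and HOXC5 share theirs. Over the 250 bases before the start, the ratio of observed to expected CpG had a median of 0.888 (range 0.609 to 0.976) for the 7 genes called in all lists and 0.904 (0.287 to 1.34) for the 10 called in none. Among 8852 protein-coding promoters with a ratio of at least 0.6, 91.6% had a called start in normoxia, 91% in hypoxia with shCtrl and 90.1% with shZHX2. For HOX promoters above the same ratio it was 8 of 16 in normoxia and 7 of 16 in each hypoxia list. The 120 bases before the start are shown for 3 genes called in all lists (HOXC4, HOXA10, HOXD1) and 3 called in none (HOXA9, HOXA7, HOXD12), from RefSeq on GRCh38.p14, 5′ to 3′ on the coding strand, with CpG in capitals.
HOXC4 (chr12:54016768-54016887, plus strand): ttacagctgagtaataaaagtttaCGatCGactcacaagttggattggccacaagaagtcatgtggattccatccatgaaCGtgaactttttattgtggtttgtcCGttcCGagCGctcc
HOXA10 (chr7:27179862-27179981, minus strand): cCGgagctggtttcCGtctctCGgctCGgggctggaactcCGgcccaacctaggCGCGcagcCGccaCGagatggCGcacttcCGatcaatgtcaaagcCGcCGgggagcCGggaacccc
HOXD1 (chr2:176188548-176188667, plus strand): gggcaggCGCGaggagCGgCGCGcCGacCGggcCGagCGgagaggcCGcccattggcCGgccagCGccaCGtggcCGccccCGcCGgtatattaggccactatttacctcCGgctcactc
HOXA9 (chr7:27165538-27165657, minus strand): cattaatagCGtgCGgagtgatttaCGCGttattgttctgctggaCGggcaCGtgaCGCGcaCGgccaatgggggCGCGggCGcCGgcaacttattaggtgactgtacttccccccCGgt
HOXA7 (chr7:27156676-27156795, minus strand): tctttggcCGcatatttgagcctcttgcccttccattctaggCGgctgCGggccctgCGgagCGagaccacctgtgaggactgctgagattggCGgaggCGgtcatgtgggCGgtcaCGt
HOXD12 (chr2:176099675-176099794, plus strand): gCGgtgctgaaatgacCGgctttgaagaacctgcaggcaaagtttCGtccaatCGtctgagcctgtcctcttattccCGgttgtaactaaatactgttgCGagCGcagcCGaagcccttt
These stretches hold 6, 14 and 17 CpG in the genes called in all lists and 14, 9 and 8 in the others. HOXA9, with the highest CpG ratio of the 18 genes, had no region within 4 kb of its start in any list.

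**Figure D3:**
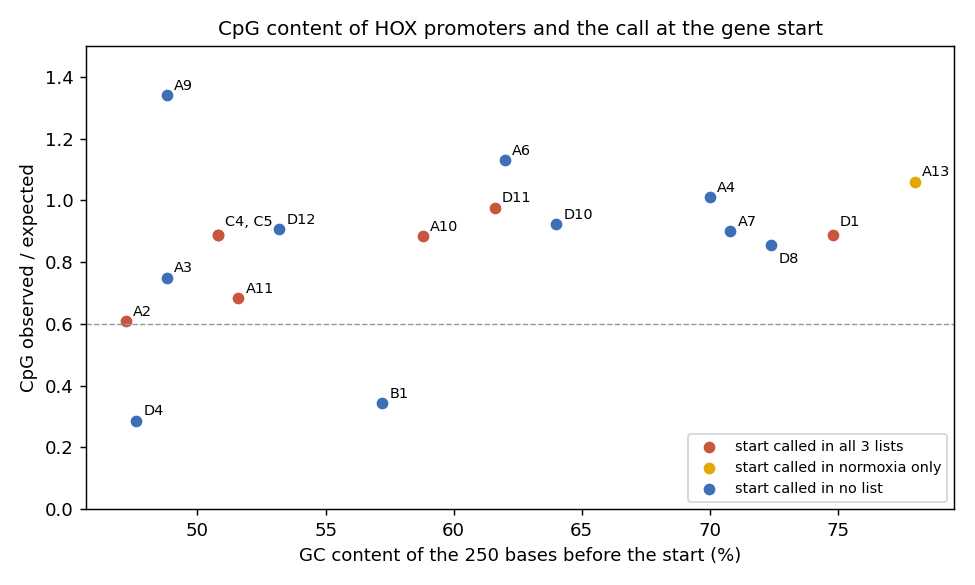
GC content (x axis, percent) and observed over expected CpG (y axis) of the 250 bases before the start for the 18 HOX genes with a RefSeq promoter at their 5′ end; colour gives the lists in which the start was called and the dashed line marks a ratio of 0.6. The ranges of called and uncalled starts overlap above the line, where HOXA9 (1.34) and HOXA6 (1.13) lie above every called start and HOXA2 (0.609) and HOXA11 (0.683) below every uncalled one, and HOXB1 (0.343) and HOXD4 (0.287) lie below it.

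A set of 7 short motifs was searched on both strands of those 250 bases, over 17 distinct HOX promoters and 13820 protein-coding promoters. ACGTG, the core letters of the hypoxia response element, was in 10 of the 17, with 5 of 6 promoters called in all lists and 5 of 10 called in none, and in 20.9% of all promoters. ACGTG itself contains a CpG, and the 20.9% was not matched for CpG content, so the 2 shares are not like for like. GGGCGG, the GC box of SP and KLF factors, was in 8 of 17 (2 of 6 called in all lists, 5 of 10 in none) and in 56% of all. TGTTTAC, a forkhead motif, was in 1 HOX promoter and 2.18% of all, and TGATTNAT, a HOX and PBX motif, was in 2 and 1.88%. TGANTCA (AP-1), the core motif of CTCF and the full oestrogen response element were in no HOX promoter, and in 5.04%, 1.29% and 0.0289% of all. Each motif was counted whether or not it overlapped another, and a match describes letters, not binding.

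Among the clusters, HOXC had the highest medians of width and of −log10 p at gene starts in each list: 1736, 1774 and 1749 bp, and 147, 107 and 123. Single start regions in HOXB were wider. HOXC13, which acts in hair and nail formation, had a region of 1748, 1774 and 1749 bp over its start (chromosome 12, 53938215 to 53939988 in all) with fold 4.83, 4.78 and 4.92 and −log10 p 501, 443 and 495 in normoxia, hypoxia with shCtrl and hypoxia with shZHX2. It ranked at the 97.0, 95.9 and 96.2 percentile of score in its list. The shared start of HOXC4, HOXC5 and HOXC6 lay in a region of 1938, 1909 and 2073 bp (54016648 to 54018767) with fold 3.46, 3.51 and 3.68. Each list had these regions at nearly the same place and width.

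Between HOXC11 and HOXC9 a run of wide, low regions was called in each list. At HOXC11 the region at the start (53973128 to 53974933) also overlapped HOTAIR, a long noncoding RNA gene, and had fold 2.83, 2.79 and 3.10. At HOXC10 the start region was 1475, 2747 and 1612 bp wide with fold 2.68, 2.54 and 2.75, and normoxia and shZHX2 each had 2 regions where hypoxia with shCtrl had 1. At HOXC9 fold was 1.78, 1.83 and 2.40. The widest HOXC region in normoxia and with shZHX2 lay between HOXC10 and HOXC9 over HOXC-AS2 (53994072 to 53996502), with 2281, 2300 and 2403 bp in the 3 lists and fold 2.14, 2.04 and 2.24. HOXC8 and HOXC12, which lie within the cluster, had no region at the start: the nearest lay 2583 to 2614 bp from HOXC8 and 1467 to 1507 bp from HOXC12.

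Regions of very low fold were found in HOXC and in no other HOX window. Fold was under 2 in 4 of 22 HOXC regions in normoxia, 3 of 16 in hypoxia with shCtrl and 4 of 16 with shZHX2, and in 0 regions of HOXA, HOXB and HOXD. In the whole lists it was under 2 in 0.943%, 0.737% and 0.503% of regions. The −log10 p of these HOXC regions reached 54.3, 20.4 and 35.2 in normoxia, hypoxia with shCtrl and hypoxia with shZHX2.

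**Figure D4:**
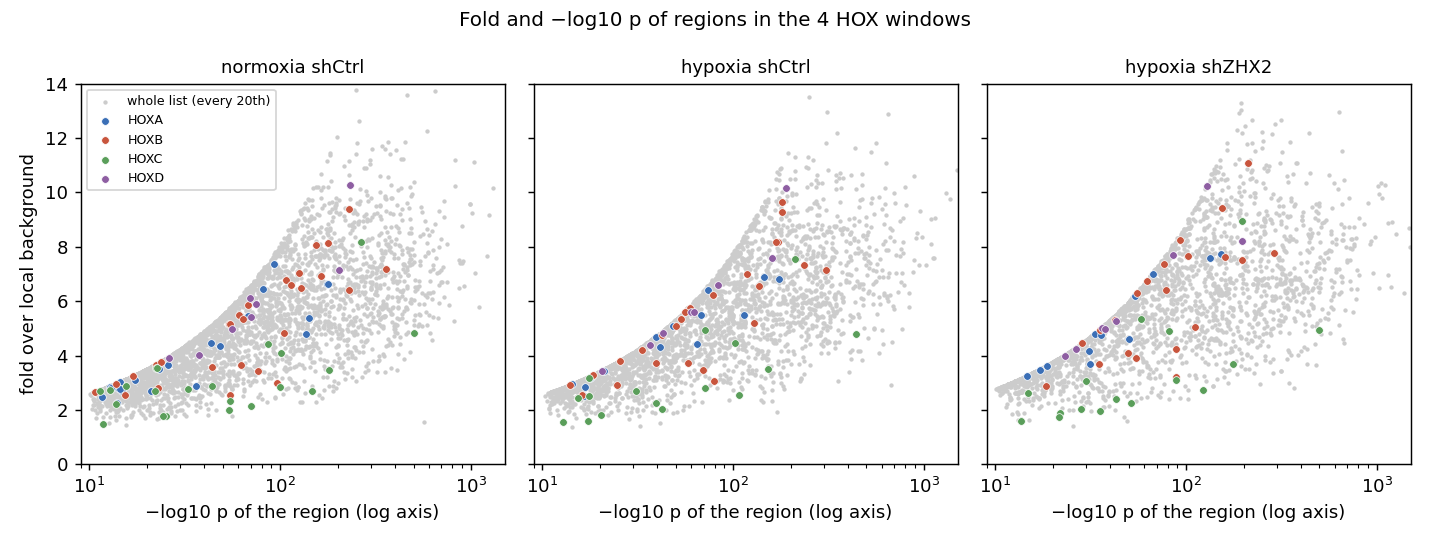
Fold over local background (y axis) against −log10 p (x axis, log scale) for regions in the HOX windows, coloured by cluster, over every 20th region of the whole list in grey, with 1 panel for each list. All HOX points with a fold under 2 are from HOXC, which also has a point of fold 7.55 to 8.96, and the HOXD point of highest fold stands at 10.1 to 10.3.

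In HOXB the genes from HOXB2 to HOXB9 had open regions in or near each gene. HOXB2 and HOXB5, which act in the hindbrain and in lung and gut, had start regions of fold 2.97, 3.08 and 3.21, and of 3.64, 3.72 and 3.91. At HOXB2 the region spanned 3088 and 3082 bp in the hypoxia lists, over 80.1% to 82.4% of the gene in the 3 lists, and in normoxia the same stretch was called as 2 regions. HOXB7, a homeobox gene studied in breast cancer, had fold 2.79, 2.57 and 2.90 at its start, inside a normoxia region of 2953 bp that reached HOXB8 and that was called as 2 shorter regions in each hypoxia list. HOXB9 had fold 4.83, 5.20 and 5.06. These 4 start regions overlapped between the 3 lists.

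HOXB4, HOXB6 and HOXB8 had no region within 1 kb of the start, but each had one within 2.5 kb. Their nearest regions lay 1183 to 1200 bp, 1990 bp and 1876 to 1965 bp from the 5′ end in the 3 lists. HOXB3, whose annotated span covers HOXB4, held 4 regions in each list. The most strongly called of them (chromosome 17, 48585094 to 48586104) had fold 7.17, 7.16 and 7.78 and −log10 p 360, 306 and 288. The gap between HOXB9 and HOXB13 was open at 5 places in all 3 lists, 1 over LINC03057 and 4 over LINC02086, with fold up to 8.12, 9.66 and 8.24. HOXB13, a prostate lineage gene also expressed in some breast tumours, had no region at its 5′ end, and the region at its far end (48724441 to 48725107, fold 6.50, 8.19 and 9.44) also touched PRAC2 and MIR3185.

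In HOXA the regions were narrow, with a mean width of 556.1, 601.1 and 525.2 bp from the first to the last gene, and most lay away from the gene starts. HOXA10, which acts in the uterus and in blood cells, was the only HOXA gene whose outermost 5′ end itself was covered. The region there (chromosome 7, 27179741 to 27180186) had fold 4.81, 5.48 and 4.59 and −log10 p 136, 114 and 50.4. It also overlapped the gene HOXA10-HOXA9. Another RefSeq start of HOXA10, 5541 bp inward, was covered in no list, with the nearest region 827, 867 and 932 bp away. HOXA2 was called through a region 365, 367 and 962 bp away with fold 3.67, 3.44 and 3.48, and HOXA11 through one 237, 60 and 465 bp away with fold 2.87, 2.51 and 3.70. HOXA4, HOXA6, HOXA7 and HOXA9 had no region in the gene in any list, and no region within 2.5 kb of their starts. The same held for HOXA5, a regulator of lung and breast epithelium. The 3 HOXA sites of highest fold in each list were a site between HOXA4 and HOXA5 (27136015 to 27136832; fold 7.35, 6.41 and 6.99), a site between HOXA6 and HOXA7 over an inner start of HOXA3 (27150308 to 27151273; 6.63, 6.82 and 7.75), and a site between HOXA7 and HOXA9 (27160517 to 27161402; 6.64, 6.89 and 7.58).

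HOXD had open sites at its HOXD13 end, 1 at its HOXD1 end, and long stretches with none. HOXD13, the gene of the digits, was called through regions of fold 5.91, 6.60 and 7.69 near its annotated 5′ end, although RefSeq also gives a start 5234 bp further on that had no region within 4 kb. HOXD11 had fold 5.42, 5.59 and 5.01 and HOXD1 had 6.12, 4.84 and 4.97. HOXD3, HOXD4, HOXD8 and HOXD9 had no region in the gene, and HOXD3 and HOXD4 had none within 10 kb of their 5′ ends in any list. The site of highest fold in any list of HOXD (chromosome 2, 176140430 to 176141174) lay between HOXD8 and HOXD4, with fold 10.3, 10.1 and 10.2, and the next, between HOXD13 and HOXD12 (176097207 to 176098239), had 7.16, 7.59 and 8.22.

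Sites between genes had a higher median fold than sites at gene starts in each list. Sites inside the annotated span of a member, such as those in HOXA3, were not counted as between genes here. HOXA gave 3, 2 and 1 of the sites so counted and HOXD 2, 2 and 3, and the rest were in HOXB and HOXC. The median fold of merged regions between members was 4.63, 5.61 and 6.15 over 18, 17 and 16 regions, and at gene starts 3.64, 3.61 and 3.80 over 17, 16 and 16. In HOXC the site of highest fold in each list also lay between genes, HOXC9 and HOXC8 (54005833 to 54006402; fold 8.19, 7.55 and 8.96). HOXC was the exception in the medians, with 2.80 between members against 2.83 at starts in normoxia, 2.42 against 2.79 in hypoxia with shCtrl and 2.84 against 3.10 with shZHX2.

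Hypoxia and normoxia were compared through the pair of shCtrl lists, in which calls at HOX gene starts differed for HOXA13 alone. Of the 83 merged HOX regions, 50 (60.2%) were called in all 3 lists, against 58.4% of 97804 merged regions in the whole series. Those at gene starts were called in all 3 in 16 of 17 cases, those between members in 14 of 20, those inside members in 12 of 25 and those in the flanks in 6 of 19. The whole series was not split by place, so whether these shares are particular to HOX genes was not tested.

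**Figure D5:**
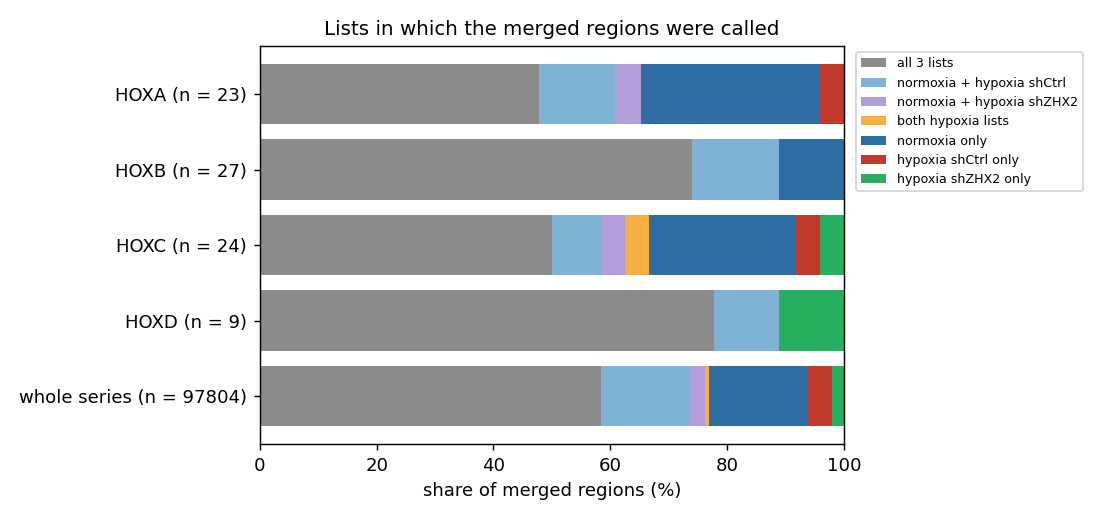
Share of merged regions (x axis, percent) by the lists in which they were called, for each HOX window and for the whole series; n is the number of merged regions. HOXB and HOXD have 74.1% and 77.8% called in all 3 lists, HOXA and HOXC 47.8% and 50%, and the whole series 58.4%.

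Of the 80 normoxia regions in the windows, 18 were not called in hypoxia with shCtrl (22.5%, Wilson 95% interval 14.7 to 32.8). The share in the whole normoxia list was 20.6%, so the HOX windows were near the background. Within the clusters it was 9 of 60. These 9 were 3 sites in HOXA3 (27110946 to 27111305, 27115265 to 27115547 and 27120760 to 27121107), 1 over HOXA11-AS (27186288 to 27186685), 1 over LINC03057 (48639235 to 48639449), 1 in HOXC11 (53975595 to 53976603) and 3 in HOXC4 (54038374 to 54039179, 54051093 to 54051457 and 54052781 to 54053064). Their fold was 1.78 to 3.53, and the 18 ranked no higher than the 33.5 percentile of score in normoxia. At the rate of normoxia regions of like score in the whole list, 17 of the 80 would not be called. Outside the clusters, the site of highest fold lay in FLJ12825 beyond HOXC4 (54082598 to 54082859, fold 3.55), and a site beyond HOXB1 (48516202 to 48516702) had fold 2.95.

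In the other direction, 3 of 64 hypoxia shCtrl regions were not called in normoxia (4.69%, 1.61 to 12.9), against 6.44% of the whole list. They were a site in HOXA3 between HOXA4 and HOXA5 (27133644 to 27133903, fold 2.94), a site between HOXC11 and HOXC10 (53981662 to 53982020, fold 1.60) and a site in FLJ12825 (54102313 to 54102534, fold 3.17). With lists of equal length by score, 3 normoxia regions and 1 hypoxia region were not called in the other list.

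Between the hypoxia lists of shZHX2 and shCtrl cells, no HOX gene start differed in its call. From the hypoxia shCtrl list, 12 of 64 were absent under shZHX2 (18.8%, 11.1 to 30.0), against 25% of the whole list. Within the clusters there were 7, among them sites between HOXA4 and HOXA5 (27133644 to 27133903), in HOXA10 (27171440 to 27171777), at the far end of HOXB1 (48528254 to 48528770), between HOXC10 and HOXC9 (53997397 to 53997924), in HOXC4 (54036887 to 54037213) and in HOXD10 (176118932 to 176119254). The fold of the 7 in hypoxia with shCtrl was 1.56 to 3.78.

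The HOXB1 end of its cluster held the sites of highest fold among those not called with shZHX2. The site at the far end of HOXB1, a hindbrain gene, had fold 5.14 and −log10 p 53.8 in normoxia and fold 3.78 and −log10 p 25.5 in hypoxia with shCtrl. A site beyond HOXB1 in LOC105371808 (48522072 to 48522659) had fold 6.59 and −log10 p 114 in normoxia and fold 5.35 and −log10 p 53.6 in hypoxia with shCtrl. It ranked at the 55.5 percentile of score in hypoxia with shCtrl, the highest of the 12. The next by fold outside the clusters were at LOC124904019 (48486592 to 48486958, fold 3.27) and in EVX1 (27244559 to 27244876, fold 3.18). Each list has its own depth and background, so the step between lists was not tested.

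With shZHX2, 4 of 57 regions were not called with shCtrl in hypoxia (7.02%, 2.76 to 16.7), against 7.11% of the whole list. They were a site in HOXA3 (27115265 to 27115547, fold 3.24) and a site in HOXC11 (53975595 to 53976603, 1.89), which were also called in normoxia, and a site in HOXC10 (53989185 to 53989423, 1.60) and a site over HOXD-AS2 (176135008 to 176135300, 4.25), which were in the shZHX2 list alone. With lists of equal length by score the balance turned: 3 shCtrl regions had no partner in the shZHX2 list, while 8 from the shZHX2 list had none in the shCtrl list. Both comparisons use the hypoxia shCtrl list.

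The 6 microRNA genes measured in the clusters lay outside the called regions. MIR10A, MIR10B, MIR196A1, MIR196A2, MIR196B and MIR615 are encoded between or within HOX genes, and some of them target HOX transcripts. None of these hairpins touched a region in any list: MIR615 was nearest, at 1049 to 1071 bp, and MIR10B farthest, at 9129 to 9157 bp. MIR3185 and MIR7704 were not measured in this way. The merged region at the far end of HOXB13 overlapped MIR3185, and the one at the HOXD1 start overlapped MIR7704. Mature sequences are shown for the miR-196 family, which is spread over 3 clusters, with the seed (bases 2 to 8) in capitals, and miR-196a and miR-196b share it.
hsa-miR-196a-5p: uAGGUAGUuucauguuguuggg
hsa-miR-196b-5p: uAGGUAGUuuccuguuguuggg

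Calls at the starts of genes that work with or on HOX genes are set beside the 72%, 70.3% and 68.8% of all protein-coding starts. Those shares were not matched for CpG content. Among promoters with a CpG ratio of at least 0.6, 91.6%, 91% and 90.1% were called, and among the others 41.1%, 37.6% and 35.1%. All 19 Polycomb genes with a strand in the table, among them EZH2, SUZ12 and RNF2, were called in all 3 lists. So were all 9 trithorax and demethylase genes, such as KMT2A and KDM6B, and all 5 boundary genes, such as CTCF. Of 7 TALE cofactors, which bind DNA beside HOX proteins, 6 were called in all 3 lists and MEIS3 in none. Of 9 ParaHox and related homeobox genes, GBX1, GBX2, GSX2 and MNX1 were called in all 3, GSX1 with shZHX2 alone, and CDX2, CDX4, EVX1 and EVX2 in none.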

How the data were processed

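ATAC-seq regions of 3 groups of 3 samples were analysed, as 1 deposited list per group. The submitters' processing notes name FastQC, Bowtie2, SAMtools, MACS2 and hg38. Versions, settings, read shifting and the way samples were combined are not given in the sources used here. The deposited values per region were a fold over local background, a −log10 p and a score, which the authors set at 10 times the −log10 q, per the values. They served to describe and rank regions within a list. Regions sharing 1 bp counted as shared. Gene positions, promoters and microRNAs came from RefSeq GRCh38.p14, and the strand of each cluster from its members in the promoter table. No genome sequence was used. Overlap code (Python 3.11.15, pandas 2.3.3) was tested on simulated lists. All members were accounted for; genes were named where a start was uncalled or differed between lists, and regions where they had the highest fold or width of a cluster or were called in 1 list of a pair. The members and lists were chosen with earlier results of these data known. Counts cover all members, and 1 member is not reported here by name. Alternatives were the threshold, list length, flank, overlap and start window.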

Additional observations from a re-analysis of the deposited data

How the results depend on the processing

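The 10 counts of regions and gene starts were recomputed under 43 alternatives, of which 33 stayed within 1.5 times. With a start window of 2.5 kb, 26 HOX genes were called in hypoxia with shCtrl, in place of 17. The 18 normoxia regions not called in hypoxia with shCtrl became 11 with a −log10 q of at least 20, 3 with lists of equal length by score and 9 without flanks. The 3 regions of the reverse comparison became 0 and 1 under the same threshold and equal length. The 12 hypoxia shCtrl regions not called with shZHX2 became 3, 3 and 7, and the 4 of the reverse became 8 with equal length, where the shCtrl list was shortened and the shZHX2 list was not. The 2 alternatives on the start window (either gene end, and any RefSeq start) were chosen after seeing the data, and gave 18 to 22 called genes. Leaving out a replicate was not run, since each list stands for its whole group. No paired analysis was possible because each group has 1 list. Depth behind the lists is unknown, so an uncalled site is not shown to be closed.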

Other observations

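The surroundings of the clusters differed. Beyond the HOXC13 end of HOXC no region was called within 50 kb in any list, and the nearest lay 68.5, 92.5 and 70.8 kb away in normoxia, hypoxia with shCtrl and hypoxia with shZHX2. HOXD was isolated on both sides: apart from a site just before HOXD13, the nearest regions lay 84.7, 84.7 and 84.6 kb beyond HOXD13 and 78.3, 78.3 and 78.3 kb beyond HOXD1. HOXA and HOXB had flanking sites in all 3 lists. The one of highest fold (chromosome 17, 48492441 to 48493038, before HOXB1) had fold 9.38, 9.26 and 11.1.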
